A study of Drosophila melanogaster with 12 samples.

Results

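The genes described here encode enzymes, or subunits of enzymes, that modify and remove the clock proteins of the fly, and they were chosen by name. They are dco, slmb, wdb, tws, sgg, CkIIalpha and CkIIbeta. Of these 7 genes, 4 were named by a probe set in the annotation of the array, namely dco, slmb and wdb with 1 probe set each and tws with 2, which made 5 of 13966 probe sets and 4 of 10844 named genes. The genes sgg, CkIIalpha and CkIIbeta matched no probe set by symbol or by gene identifier and were not analysed here.

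The clock of the fly is a feedback loop in which the proteins PER and TIM build up during the night, enter the nucleus and shut off their own transcription. The pace of the loop depends on how fast PER and TIM are phosphorylated and destroyed. The kinase doubletime, the product of dco and a relative of mammalian casein kinase 1 delta and epsilon, phosphorylates PER. The kinases encoded by sgg, CkIIalpha and CkIIbeta act on TIM and PER as well. Protein phosphatase PP2A removes phosphate from PER, directed by the regulatory subunits twins (tws) and widerborst (wdb). The F-box protein slimb, the product of slmb, recognises phosphorylated PER and brings it to the SCF ubiquitin ligase, which marks it for the proteasome. The same proteins serve other pathways, among them Wnt and Hedgehog signalling.

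RNA came from adult heads of y w Drosophila melanogaster, a strain in which yellow, a gene of body colour, and white, a gene of eye colour, are mutant, as they were in all groups. The flies had lived for 3 days in cycles of 12 h of light and 12 h of darkness. The DD group was sampled during 1 day of constant darkness at hours 2, 6, 10, 14, 18 and 22 after the time at which the lights would have come on, and the LD group was sampled at the same hours of the light/dark day just before it. Each of the 12 arrays held a pool of 100 to 200 heads, so that each hour of each regime was 1 array. The labels as used here name neither sex nor age. The labels do not say whether the pools were independent, so p-values reflect only how these arrays scatter, and some of that scatter may be technical. The values are log2 expression levels made by the authors with RMA, and a difference of 1 is a doubling.

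Array medians lay between 5.37 and 5.40. Of the marker genes checked, 4 of 8 measured for neurons, 4 of 5 for photoreceptors and 3 of 5 for glia had means above the overall median of 5.39, as had 1 of 5 for testis and accessory gland, 3 of 5 for ovary, 3 of 5 for midgut, 4 of 6 for thoracic flight muscle and 6 of 6 for fat body and yolk. Signal differs between probe sets for reasons other than abundance, so these counts describe the arrays only. One technical measure recurs below. Each array carries probe sets for both ends of actin, GAPDH and eIF-4a, 3 control transcripts. Their signal at the 5′ end minus that at the 3′ end, which reflects how complete the labelled RNA was, was lowest on 4 arrays: DD 18 (−2.51 log2), DD 22 (−2.45), DD 14 (−1.89) and LD 2 (−2.02). The other 8 arrays lay between −1.76 and −1.51. Actin alone and GAPDH alone picked the same 4 arrays, whereas for eIF-4a the values of LD 2 (−1.29) and DD 14 (−1.18) were the highest of all 12.

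The kinase gene dco (CG2048, NCBI gene 43673, probe set 153528_at) had opposite courses on the 2 days. In DD it stood at 6.93 log2 at hour 2, 6.83 at hour 6, 7.27 at hour 10, 7.32 at hour 14, 7.55 at hour 18 and 7.66 at hour 22. In LD it stood at 7.50 at hour 2, 7.17 at hour 6, 7.07 at hour 10, 7.11 at hour 14, 6.96 at hour 18 and 6.87 at hour 22. The late night was thus the high end of the day in DD and the low end in LD. DD minus LD was −0.57 log2 at hour 2 and 0.79 at hour 22, and the ranges of the 2 days overlapped. Over all 12 arrays dco spanned 0.83 log2, a factor of 1.78.

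The PP2A subunit gene wdb (CG5643, NCBI gene 43312, probe set 154680_at) followed the course of dco at low signal. Its values in DD were 3.22 log2 at hour 2, 3.09 at hour 6, 3.27 at hour 10, 3.47 at hour 14, 3.41 at hour 18 and 3.65 at hour 22. In LD they were 3.38 at hour 2, 3.26 at hour 6, 3.17 at hour 10, 3.201 at hour 14, 3.15 at hour 18 and 3.09 at hour 22. Both days ended at opposite ends of the range, and the ranges overlapped. Of all probe sets, 89.4% had a mean at least as high as that of wdb, so it lay near the low end of the scale, where differences may be compressed.

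The other PP2A subunit gene, tws (CG6235, NCBI gene 47877), had 2 probe sets. Probe set 142582_at ranged in DD from 5.31 (hour 2) to 5.61 (hour 18) with a median of 5.46, and in LD from 5.07 (hour 10) to 5.63 (hour 6) with a median of 5.38. Probe set 151635_s_at, whose suffix marks probes shared by several transcripts in the manufacturer's naming, ranged in DD from 4.57 (hour 14) to 5.17 (hour 10) with a median of 4.75, and in LD from 4.46 (hour 2) to 4.98 (hour 18) with a median of 4.82. The days overlapped for both. The 2 probe sets correlated over the 12 arrays with a Pearson's r of 0.37, and over the 8 arrays outside the 4 of lowest 5′ signal with 0.70.

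The F-box gene slmb (CG3412, NCBI gene 42504, probe set 153633_at) had its lowest values at the night hours of DD and at hour 2 of LD. In DD it stood at 5.02 log2 at hour 2, 5.05 at hour 6 and 5.03 at hour 10, and then at 4.44 at hour 14, 4.25 at hour 18 and 4.27 at hour 22. In LD it stood at 4.56 at hour 2, 4.96 at hour 6, 5.06 at hour 10, 5.29 at hour 14, 5.11 at hour 18 and 4.98 at hour 22. The 3 night arrays of DD and the first array of LD were low, and the other 8 lay within 0.33 log2 of each other. DD minus LD was 0.46 log2 at hour 2, −0.85 at both hours 14 and 18, and −0.71 at hour 22. With a span of 1.04 log2, a factor of 2.05, slmb varied more over the arrays than the other members, and 6.49% of all probe sets had a standard deviation at least as large as its 0.35.

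**Figure D1:**
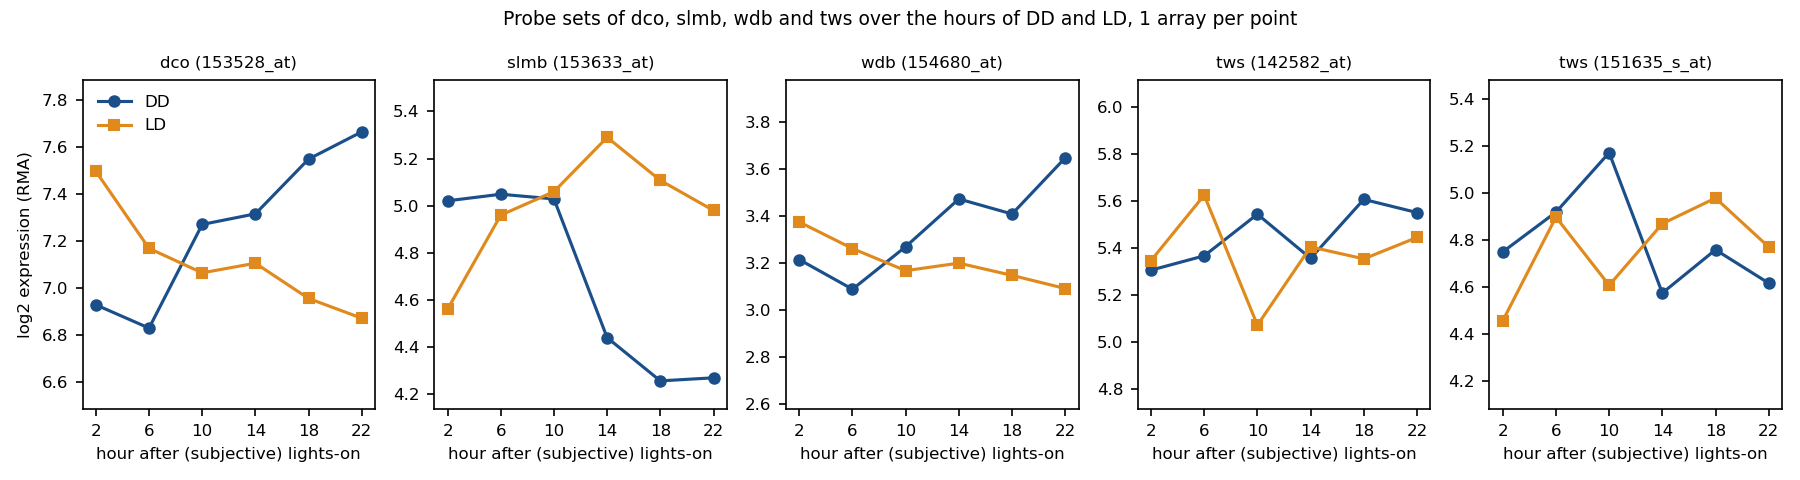
Log2 expression (vertical axis, RMA) of the 5 probe sets of dco, slmb, wdb and tws against the hour after actual or subjective lights-on (horizontal axis), with DD as circles and LD as squares, 1 array per point; each panel spans the same number of log2 units. dco ends at 7.66 in DD and 6.87 in LD, slmb lies between 4.25 and 4.44 at the night hours of DD, and wdb follows dco.

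The series asks which transcripts follow a daily rhythm, and this was tested first over both days together. None of the 5 probe sets passed the test for a 24 h rhythm shared by both days. A cosine curve fitted to the 12 arrays had an amplitude, from mean to peak, of 0.22 ± 0.11 log2 for slmb (SE, peak at hour 8.72), 0.11 ± 0.11 for dco, 0.07 ± 0.06 for wdb, and 0.05 ± 0.06 and 0.09 ± 0.08 for tws 142582_at and 151635_s_at. In limma's F-test 0 of the 5 passed Benjamini-Hochberg adjustment over all probe sets, where 0.0215% of all probe sets did, and 0 of 5 had an unadjusted p under 0.05, where 4.68% of all did. The adjusted p lay between 0.967 for slmb and 0.980 for tws 142582_at. The fitted peak of slmb was at hour 15.8 with an amplitude of 0.05 ± 0.07 when the control signal entered as a covariate (0 of 5 with an unadjusted p under 0.05, beside 3.01% of all probe sets), and at hour 15.1 with 0.12 ± 0.06 without the 4 arrays of lowest signal. For dco the shared amplitude lay between 0.03 (without DD 6) and 0.17 (without LD 22) when 1 array was left out, and was 0.06 with a linear trend in place of the regime.

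Each day was then given a curve of its own, while the spread was estimated once for all 12 arrays. In DD slmb had an amplitude of 0.49 ± 0.08 log2 and peaked at hour 6.40, and its peak was 1.98 times its trough. Amplitudes as large in DD were found for 2.57% of all probe sets. That of dco was 0.37 ± 0.11, or 1.67 times from trough to peak, peaking at hour 18, and that of wdb was 0.22 ± 0.07, with the peak at hour 18.6. The 2 probe sets of tws had 0.09 ± 0.09 (142582_at) and 0.21 ± 0.10 (151635_s_at). None of the 5 passed adjustment (limma, 0 of 5, as for 0% of all probe sets), with adjusted p of 0.171 for slmb, 0.343 for dco and 0.411 for wdb. At an unadjusted p under 0.05, 3 of 5 passed (slmb, dco and wdb), where 11.5% of all probe sets did.

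None of the 3 had an unadjusted p under 0.05 in fits that allowed for the control signal. In DD that signal itself ran with the hour. It lay between −1.635 and −1.515 log2 at hours 2, 6 and 10, and between −2.51 and −1.89 at hours 14, 18 and 22. A rhythm in DD and the control signal can therefore hardly be told apart by these fits. With that signal as a covariate the DD amplitude was 0.24 ± 0.11 for slmb, 0.13 ± 0.14 for dco and 0.15 ± 0.14 for wdb, and 0 of 5 had an unadjusted p under 0.05, where 2.03% of all probe sets did. The median standard error of the DD amplitude over all probe sets was 0.12 log2 in that fit and 0.07 without the covariate. Without the 4 arrays of lowest signal, DD keeps only the hours 2, 6 and 10, which fix a curve without any residual of their own, and the amplitudes were 0.05 ± 0.27 for slmb and 0.57 ± 0.26 for dco. Leaving out single arrays gave DD amplitudes from 0.45 to 0.57 for slmb (unadjusted p under 0.05 in 12 of 12 fits) and from 0.32 to 0.45 for dco (10 of 12, limma's unadjusted p = 0.141 without DD 6). For wdb the unadjusted p was under 0.05 in 5 of 12 such fits. The amplitude of tws 142582_at lay between 0.05 (without DD 18) and 0.17 (without DD 14), and that of tws 151635_s_at between 0.11 (without DD 10) and 0.29 (without DD 18).

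In LD the curve of slmb peaked at hour 14.3, and its amplitude was 0.28 ± 0.08 log2, or 1.48 times from trough to peak. It did not pass adjustment (limma, adjusted p = 0.722), and its amplitude was 0.18 without LD 2. The LD amplitude of dco was 0.18 ± 0.11 with the peak at hour 4.75, and that of wdb was 0.08 ± 0.07 with the peak at hour 4.69. tws 142582_at had 0.09 ± 0.09 and tws 151635_s_at had 0.14 ± 0.10, the second with 0.07 without LD 2 and 0.30 without LD 6. In all, 0 of 5 passed adjustment, where 0.0501% of all probe sets did, and 1 of 5 (slmb) had an unadjusted p under 0.05, where 5.66% did. With the control signal as a covariate it was again 1 of 5 (slmb, 0.23 ± 0.06), where 4.72% of all were. Without the covariate, the unadjusted p of slmb was under 0.05 in 10 of 12 fits that left out 1 array. The exceptions were the fits without LD 2 (limma, unadjusted p = 0.182) and without LD 14 (0.0889). Without the 4 arrays of lowest signal, limma's unadjusted p for slmb was 0.162.

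**Figure D2:**
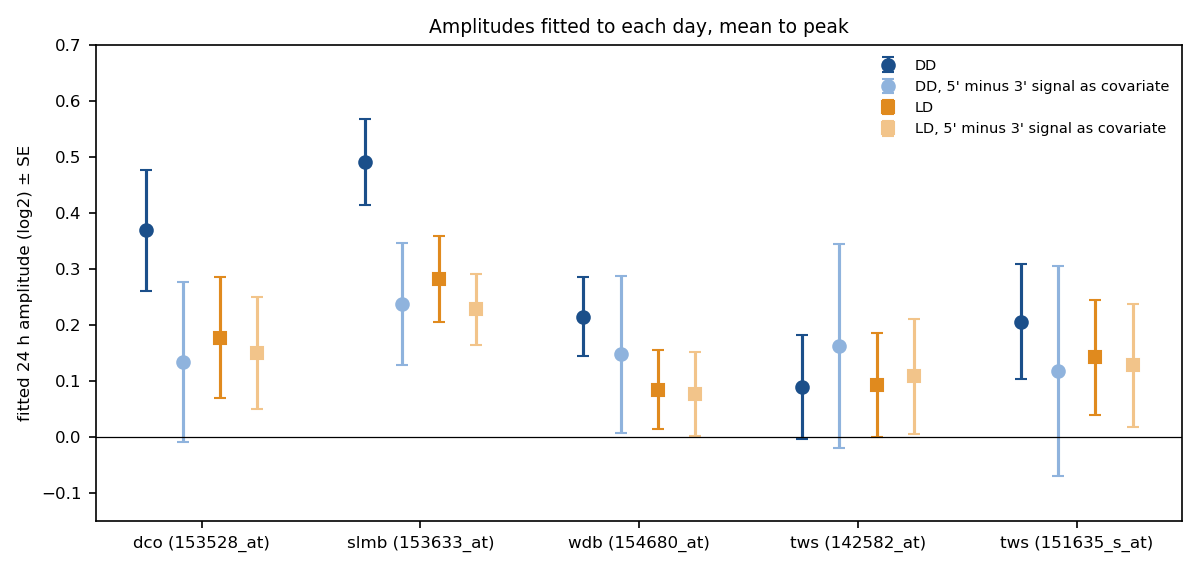
Fitted 24 h amplitude from mean to peak (vertical axis, log2, bars ± SE) of each probe set (horizontal axis) in DD (circles) and LD (squares), with and without the 5′ minus 3′ control signal as a covariate (pale). The DD amplitude of slmb is 0.49 without the covariate and 0.24 with it, and that of dco is 0.37 and 0.13.

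Whether the rhythm differed between DD and LD was tested directly. The fitted peaks of slmb lay at hour 6.40 in DD and hour 14.3 in LD, those of dco at hour 18 in DD and hour 4.75 in LD, and those of wdb at hour 18.6 in DD and hour 4.69 in LD. The difference of the 2 curves, as the amplitude of DD minus LD, was 0.67 ± 0.11 log2 for slmb, 0.54 ± 0.15 for dco and 0.29 ± 0.10 for wdb. It was 0.15 ± 0.13 for tws 142582_at and 0.30 ± 0.15 for tws 151635_s_at, beside a median of 0.15 over all probe sets. Leaving out 1 array gave 0.09 (DD 2) to 0.25 (DD 14) for tws 142582_at, and 0.24 (LD 18) to 0.47 (LD 6, unadjusted p = 0.0159 in limma) for tws 151635_s_at. None passed adjustment (0 of 5, as for 0% of all probe sets). In limma the adjusted p was 0.228 for slmb, 0.397 for dco and 0.495 for wdb. Before adjustment p was under 0.05 for 3 of 5, again slmb (limma, unadjusted p = 4.97e-04), dco and wdb, where it was so for 9.96% of all probe sets. For slmb it was so without any single array (12 of 12 fits), for dco in 10 of 12 and for wdb in 2 of 12. With the control signal as a covariate the difference of slmb was 0.43 ± 0.12 (limma, unadjusted p = 0.0136, adjusted p = 1.00), the only 1 of 5 under 0.05, where 3.01% of all probe sets were. That of dco was 0.27 ± 0.21 and that of wdb 0.22 ± 0.16. Without the 4 arrays of lowest signal the difference of slmb was 0.21 ± 0.22.

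The mean over the day was compared between darkness and the light/dark day, though DD always came second, so that regime and day cannot be told apart. With all 12 arrays, no mean level of the 4 genes passed a test between DD and LD. For slmb the mean was 4.68 ± 0.40 log2 in DD and 4.99 ± 0.24 in LD (SD, n = 6 each), a fitted difference of −0.32 ± 0.16 (SE; limma, adjusted p = 0.766). The two-sided exact permutation test over the 924 splits of the arrays gave p = 0.108 for slmb, the smallest of the 5 computed. For dco the mean was 7.26 ± 0.33 in DD and 7.11 ± 0.22 in LD, a difference of 0.15 ± 0.15 (adjusted p = 0.875), and for wdb it was 3.35 ± 0.20 in DD and 3.21 ± 0.10 in LD, a difference of 0.14 ± 0.09 (adjusted p = 0.810). tws had differences of 0.08 ± 0.09 (142582_at) and 0.03 ± 0.11 (151635_s_at). In all, 0 of 5 passed adjustment (limma), where 0.150% of all probe sets did, and 0 of 5 had an unadjusted p under 0.05, where 6.82% did. With the control signal as a covariate it was also 0 of 5, where 5.83% of all were. Without the 4 arrays of lowest 5′ signal the difference of slmb was 0.03 ± 0.09 and that of dco −0.03 ± 0.11, both of the opposite sign, and those of tws were 0.002 ± 0.15 (142582_at) and 0.20 ± 0.13 (151635_s_at). For tws 151635_s_at the difference lay between −0.04 (without DD 10) and 0.11 (without DD 14) when 1 array was left out. That of slmb lay between −0.41 (without LD 2) and −0.25 (without LD 18). Its unadjusted p in limma was under 0.05 in 2 of 12 such fits, and its smallest adjusted p in them was 0.415. Heads are a mixture of cells, and fewer cells of a type and less RNA per cell cannot be told apart. Of the marker lists, the mean of 6 fat body and yolk genes lay between 10.86 and 10.998 log2 on the DD arrays and between 11.06 and 11.41 on the LD arrays, with no overlap, and that of 6 flight muscle genes between 5.96 and 6.68 in DD and between 6.27 and 7.46 in LD. Their part in the mean levels of the members was not tested.

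The members were next set against the control signal array by array. For slmb the 4 arrays of lowest 5′ signal stood at 4.25 to 4.56 log2, and the other 8 at 4.96 to 5.29, with no overlap and a difference in means of −0.68 log2, a factor of 1.60. For dco those 4 arrays stood at 7.32 to 7.66, and the other 8 at 6.83 to 7.27, with no overlap and a difference of 0.48, a factor of 1.40. For wdb they stood at 3.38 to 3.65, and the other 8 at 3.09 to 3.27, with no overlap and a difference of 0.30. The 4 arrays held 1 from LD and 3 from DD, taken at the morning of one day and the night of the other.

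Both probe sets of tws overlapped between the 4 arrays (5.35 to 5.61 for 142582_at and 4.46 to 4.76 for 151635_s_at) and the other 8 (5.07 to 5.63 and 4.61 to 5.17). Thus 3 of 5 probe sets, 1 lower and 2 higher, were separated by the 4 arrays, where 7.74% of all probe sets were, 4.58% lower and 3.16% higher. With DD 18 and DD 22 alone, the arrays low in all 3 control transcripts, 2 of the 5 (dco and slmb) were separated from the other 10, where 12.4% of all probe sets were. The part of RNA quality in these values was not tested.

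The means of 3 of the 8 marker lists stood apart on the 4 arrays of lowest 5′ signal. The mean of 8 neuronal markers lay between 5.62 and 5.80 log2 on the 4 arrays and between 5.12 and 5.47 on the other 8. That of 5 photoreceptor markers lay between 8.51 and 8.81 and between 8.96 and 9.18, and that of 6 flight muscle markers between 5.96 and 6.27 and between 6.34 and 7.46. None of these 3 overlapped. Gene by gene, 2 of 8 neuronal and 1 of 5 glial markers were higher on the 4 arrays without overlap. Of the photoreceptor markers 2 of 5 were lower, and of the flight muscle markers 2 of 6. Of all 10844 genes, 285 were higher and 527 lower. The mean of 5 glial markers (6.47 to 6.73, against 6.44 to 6.66), of 6 fat body and yolk genes (10.9 to 11.1, against 10.9 to 11.4), of 5 midgut genes (6.47 to 6.62, against 6.52 to 6.99), of 5 testis and accessory gland genes (3.93 to 4.12, against 3.86 to 3.96) and of 5 ovary genes (5.65 to 5.93, against 5.57 to 6.10) overlapped. The part of cell mixture in the values of slmb, dco and wdb was not tested.

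**Figure D3:**
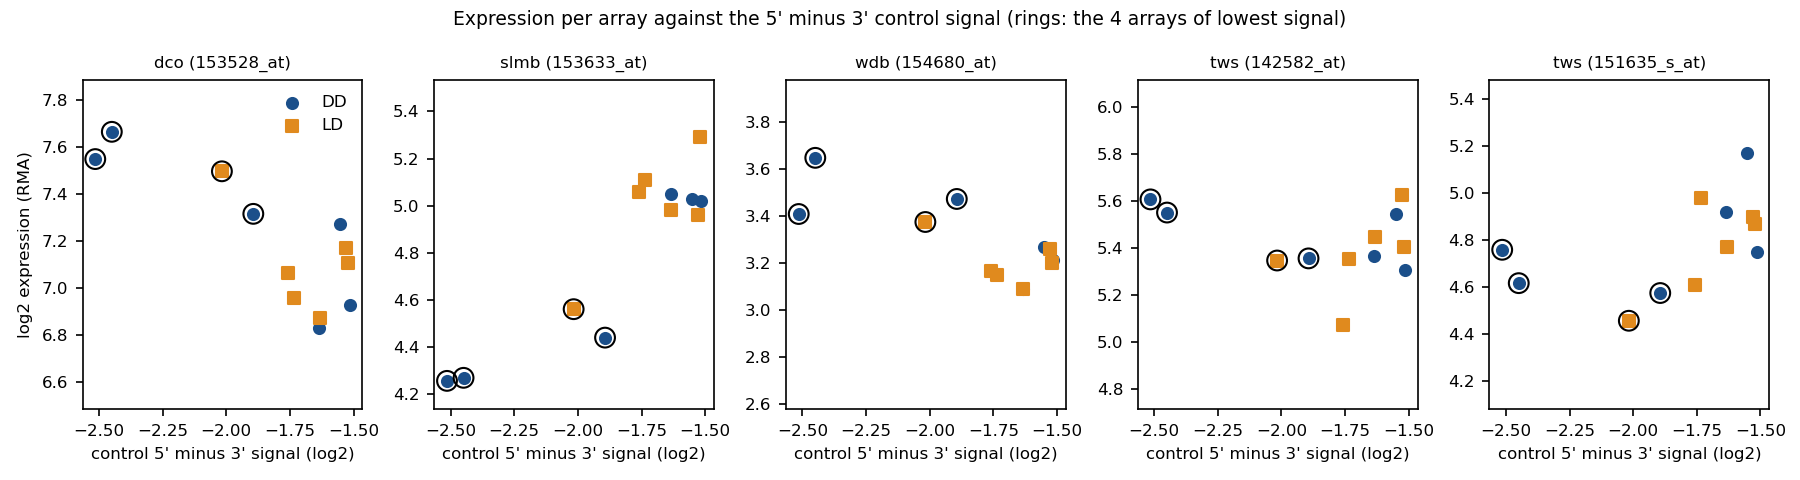
Log2 expression per array (vertical axis) of the 5 probe sets against the mean 5′ minus 3′ signal of the 3 control transcripts (horizontal axis, log2), with DD as circles, LD as squares and rings round the 4 arrays of lowest signal. The ringed arrays lie below all others for slmb (4.25 to 4.56, against 4.96 to 5.29), above all others for dco and wdb, and among the others for tws.

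The courses of dco and wdb were much alike. Their values correlated over the 12 arrays with a Pearson's r of 0.92, and 3 of all other probe sets had a higher r with dco than wdb had. Over the 8 arrays outside the 4 of lowest signal r was 0.87. These are descriptions of arrays that share regime, hour and control signal. Over the 12 arrays dco correlated with slmb at an r of −0.83, and slmb with wdb at −0.87. Over the same 8 arrays dco correlated with slmb at an r of 0.10, and slmb with wdb at −0.02.

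Among the 6188 probe sets of single genes above the median signal, those most like slmb over the 12 arrays were unc-104, a kinesin that carries synaptic vesicle precursors along axons, and Glg1, named for a Golgi glycoprotein. Their r with slmb over the other 8 arrays, since those 4 stand apart from them, was 0.95 for unc-104 and 0.96 for Glg1. Those most like dco were gammaSnap1, a factor of membrane fusion (r = 0.94 over 12 arrays, 0.73 over 8), and CG18766 (0.93, 0.69). Those most like wdb were snRNP-U1-70K, a protein of the U1 splicing particle (0.97, 0.70), and Rsf1, a splicing repressor (0.95, 0.58). All 6 were separated by the 4 arrays of lowest signal. Those most like tws 142582_at were CG3036 (0.92, 0.92) and Sh3beta (0.91, 0.90), which were not.

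The substrates of these enzymes and their partners in the loop were measured on the same arrays. Of 8 measured clock genes, 2 passed adjustment for the rhythm over both days (tim and vri), and 6 had an unadjusted p under 0.05, where 3 and 512 of all 10844 genes did, with a median amplitude of 0.37 log2 over the 8, beside 0.07 over all 10844 genes. tim, whose product is a target of phosphorylation, stood at 5.57, 5.56, 6.34, 7.25, 6.58 and 5.65 log2 at the 6 hours of DD, and at 5.58, 5.72, 6.88, 7.80, 7.62 and 6.39 at those of LD (amplitude 1.02 ± 0.09, limma, adjusted p = 0.00485). vri, a repressor of Clk, had an amplitude of 0.86 ± 0.06, and cry, the blue-light receptor, and Clk, the activator, had 0.41 ± 0.08 and 0.42 ± 0.10. per, which encodes the main target of doubletime and slimb, had an amplitude of 0.34 ± 0.07 with a peak at hour 16.3 and did not pass (adjusted p = 0.807). Pdp1 had 0.25 ± 0.05, whereas cyc (0.10 ± 0.04) and cwo (0.05 ± 0.04) had amplitudes as small as those of the members. Amplitudes shared by both days are small where the courses of the 2 days are opposite, as they were for dco. By the 4 arrays of lowest signal 0 of the 8 were separated, where 285 of all 10844 genes were higher and 527 lower without overlap.

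**Figure D4:**
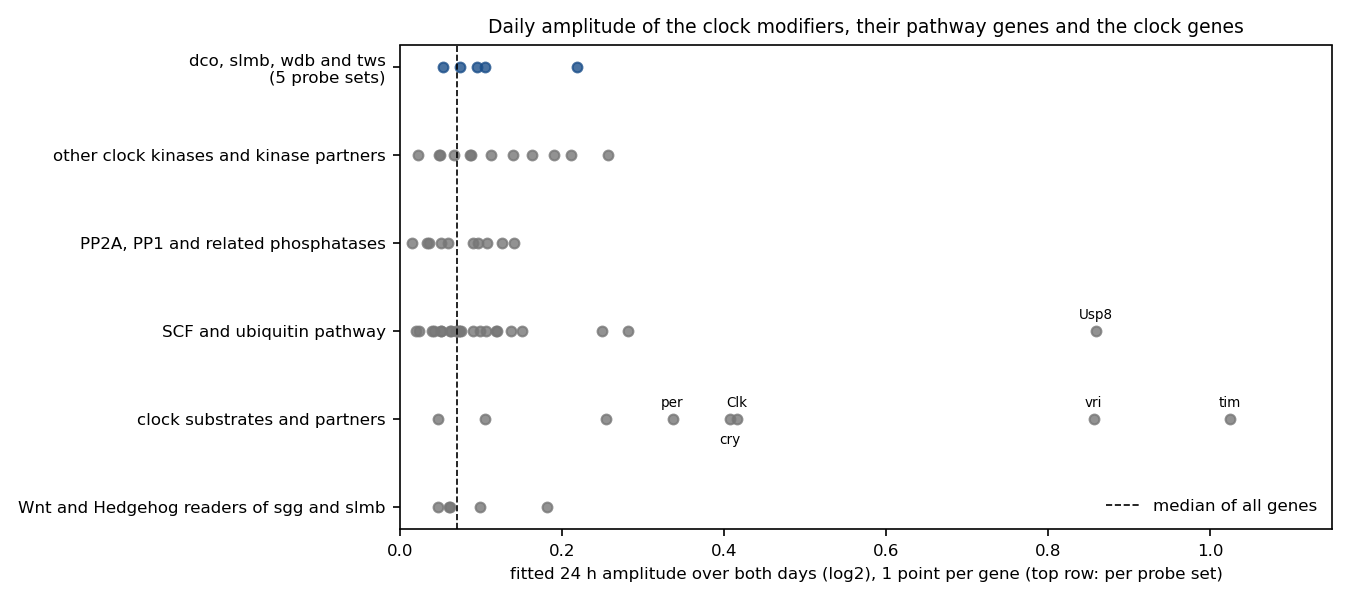
Fitted 24 h amplitude over both days (horizontal axis, log2) of the 5 probe sets of dco, slmb, wdb and tws (top row) and of the genes of 5 lists (rows below, 1 point per gene by its brightest probe set), with the median of all genes as a dashed line at 0.07. The 5 probe sets lie between 0.05 and 0.22, whereas tim, vri and Usp8 lie at 0.86 or above. Of the clock genes, cwo lies at 0.05 and cyc at 0.10.

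Other kinases and kinase partners of the clock were followed in 12 of 19 listed genes. None passed adjustment in the rhythm over both days or in the mean level (limma, 0 of 12 in each). Of all 10844 genes, 3 passed for the rhythm, and 2 as higher and 11 as lower in DD for the mean level. In the mean level 0 were higher and 4 lower in DD at an unadjusted p under 0.05, where 312 and 432 of all 10844 genes were. They were CkIalpha, Doa, Pka-R1 and Akt. The smallest p was that of CkIalpha, another casein kinase 1 gene, with 4.998 ± 0.18 log2 in DD and 5.38 ± 0.21 in LD (SD, n = 6 each), a difference of −0.38 ± 0.10 (limma, adjusted p = 0.396). Next came Doa, a dual-specificity kinase that phosphorylates splicing factors, with 5.80 ± 0.13 in DD and 6.08 ± 0.24 in LD, a difference of −0.28 ± 0.08 (limma, adjusted p = 0.505). The mean of the 12 genes lay between 4.999 and 5.07 on the DD arrays and between 5.08 and 5.29 on the LD arrays. Their median DD minus LD was −0.05 log2, beside −0.00308 over all genes. How often other gene sets part DD from LD in this way was not tested. For the rhythm over both days 2 of 12 had an unadjusted p under 0.05, where 512 of 10844 did. They were Doa (amplitude 0.19 ± 0.05) and Ssl (0.16 ± 0.05), a gene related to CkIIbeta, and S6k, the ribosomal protein S6 kinase, came next (0.26 ± 0.11). The median amplitude was 0.10 log2.

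No measured phosphatase gene of the list passed adjustment. No probe set carried mts, Pp2A-29B, wrd or I-2 as its only gene symbol, so the list covers PP2A only in part. Of 10 measured of 14 listed subunits of PP2A, PP1 and related phosphatases, 0 passed adjustment and 0 had an unadjusted p under 0.05, in the rhythm over both days and in the mean level alike (limma). Of all 10844 genes, 3 passed adjustment for the rhythm, and 2 as higher and 11 as lower in DD for the mean level. Before adjustment p was under 0.05 for 512 in the rhythm, and for 312 higher and 432 lower in the mean level. In DD alone and in the difference of DD and LD, 1 of 10 had an unadjusted p under 0.05, where 1214 of 10844 genes did in DD and 1047 in the difference. Their median amplitude was 0.07 log2 and their median DD minus LD 0.02, beside 0.07 and −0.00308 over all genes. The smallest p for the rhythm belonged to Pp4-19C (amplitude 0.09 ± 0.06), Ptpa (0.06 ± 0.04) and PpV (0.13 ± 0.09), and those for the mean level to Pp1-13C (−0.08 ± 0.07) and Pp1alpha-96A (0.09 ± 0.09). PpV, the PP6 catalytic subunit of the fly, was separated by the 4 arrays of lowest 5′ signal as slmb was.

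Of the SCF ligase and ubiquitin pathway, 22 of 25 listed genes were measured, and 0 passed adjustment for the rhythm, the difference or the mean level (limma). Of all 10844 genes, 3 passed for the rhythm, 0 for the difference, and 2 as higher and 11 as lower in DD for the mean level. Usp8, a deubiquitinase that acts on the clock activator CLK, had the largest amplitude, 0.86 ± 0.12 log2 with a peak at hour 13.3 (adjusted p = 0.142). Cand1, which exchanges the substrate receptors of cullin ligases, had 0.12 ± 0.04 and ago, another F-box protein gene, 0.25 ± 0.09. In the mean level the smallest p were those of Usp8, with 6.10 ± 0.60 in DD and 6.58 ± 0.83 in LD (difference −0.49 ± 0.16), and of Nedd8, the ubiquitin-like activator of cullins, with 7.26 ± 0.23 in DD and 6.71 ± 0.62 in LD (difference 0.56 ± 0.23).

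For the direct partners of slimb in the ligase, the difference of the DD and LD curves did not pass adjustment. In limma the unadjusted p was 0.00595 for Cul1, the scaffold (adjusted p = 0.314), 0.648 for SkpA, the adaptor, and 0.732 for Roc1a, the RING subunit. The 3 genes were not tested against each other. In all, 6 of 22 genes had an unadjusted p under 0.05 for that difference, where 1047 of 10844 did. On the 4 arrays of lowest signal 2 of 22, SkpB and Usp7, were lower without overlap and 0 were higher, where 527 of all 10844 genes were lower and 285 higher.

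Of the 5 measured of 10 listed genes of Wnt and Hedgehog signalling, in which sgg and slmb also act, 0 passed adjustment for rhythm or mean level (limma). Of all 10844 genes, 3 passed for the rhythm, and 2 as higher and 11 as lower in DD for the mean level. In the list, 1 gene had an unadjusted p under 0.05 for the rhythm, where 512 of 10844 did. This was Su(fu), the inhibitor of the Hedgehog effector ci, with an amplitude of 0.18 ± 0.06 log2. For ci it was 0.10 ± 0.05 and for cos 0.06 ± 0.04. In the mean level the smallest p were those of smo, the Hedgehog signal transducer (0.20 ± 0.11), and of cos (−0.09 ± 0.06).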

How the data were processed

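The deposited table holds 1 log2 value per probe set and array for 12 arrays of adult heads. Per the submitters' processing notes, the authors made these log2 values with RMA, which corrects background, normalizes quantiles between arrays and summarises probes. The RMA version was not given in the sources used here. Values were used as deposited, without a filter on low values. The 44 control probe sets were set aside from 14010. Of the other 13966 probe sets, 12443 carried 1 gene symbol, 327 several and 1196 none, and symbols were updated through NCBI gene identifiers.

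All fits used limma 3.58.1 in R 4.3.3 on all 13966 probe sets, with a cosine and a sine of 24 h, a term for DD and, for separate days, a curve for each. Adjustment followed Benjamini and Hochberg, with a threshold of 0.05. The fits were also run on simulated data with independent noise and added effects larger than any fitted to the members. Those runs do not bear on effects of the members' size. Alternatives changed the filter, normalization, variance prior, regime term, arrays, covariates and summary per gene. The number of arrays limits the precision.

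Members, gene lists and tests were chosen with earlier results of these data known. All member probe sets are named. From each list, each gene by its brightest probe set, the text names the 3 genes of smallest p for the rhythm and the 2 for the mean level, all measured clock genes may be named, and for each member the 2 most similar probe sets are. The genes Pka-R1, Akt, Cul1, SkpA, Roc1a, SkpB and Usp7 fall outside this rule and were chosen after their values were seen, as was the comparison of the 4 arrays of lowest 5′ signal with other array sets.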

Additional observations from a re-analysis of the deposited data

Results flagged for a closer look

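Dixon's test was run on 62 sets of 6 arrays, in DD and in LD. They covered the member probe sets, measured clock genes, list genes named by smallest p and the 5′ minus 3′ control signal. The genes named outside that rule and the probe sets most like the members were not screened. In 1 set an array lay farther from its neighbours than the test allows. This was PpV, the PP6 catalytic subunit gene, on LD 2, with 5.85 log2, where the other LD arrays lay between 6.26 and 6.48. Chance flags about 1 in 20 such sets. LD 2 was also the LD array of lowest 5′ minus 3′ control signal (−2.02 log2) and the LD array on which slmb was lowest (4.56) and dco highest (7.50).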

How the results depend on the processing

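The count of 0 member probe sets past adjustment held in every comparison and under every alternative run, for the members each run included. The alternative limited to brighter probe sets left out slmb, wdb and tws 151635_s_at. That alternative could therefore call only dco and the other probe set of tws. The counts over all probe sets moved more. For the rhythm over both days 3 were called, and 1 when the 4 arrays lowest in 5′ signal were dropped, 1 with probe sets averaged per gene and 0 with hour as an unordered factor. For LD 7 were called, and 4 with the control signal as covariate, 3 without those 4 arrays, 4 with gene means and 1 with the LD arrays alone. For both days leaving out 1 array gave 2 to 3, and for LD it gave 0 (LD 22) to 37 (LD 6). Without those 4 arrays 1 was called for DD and 1 for the difference, and leaving out 1 array gave 0 to 14 (LD 2) and 0 to 12 (LD 6). For the mean level 21 were called, and 0 without those 4 arrays, 12 with gene means, 2 with hour of day as a replicate block, and 4 (DD 6) to 26 (LD 22) with 1 array left out. The block by hour called 0 members. The sign of DD minus LD turned for dco with the covariate (−0.0299) and without the 4 arrays (−0.0287), for slmb without the 4 arrays (0.0346), and for tws 151635_s_at with 1 array left out, where it lay between −0.0356 and 0.107 log2. The cause was not tested. Signal limits wdb most, at a mean of 3.28 log2. The count of 3 of 5 probe sets separated by the 4 arrays, beside 7.74% of all, was 3 of 5 after quantile normalization again (7.58% of all) and after centring arrays (7.68%), 3 of 4 genes with gene means (7.30%), and 2 of 5 with DD 18 and DD 22 alone (12.4%), settings chosen after seeing the data.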
